A study of Oryctolagus cuniculus with 4 samples.

Results

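TXNRD1, SLC7A11 and PTGR1 were followed across the cells of rabbit bladder mucosa. They are 3 of the 18475 genes counted in each cell, 9769 of which carried a gene symbol, and each was taken by its symbol from 1 row of the gene list (ENSOCUG00000003961, ENSOCUG00000001662 and ENSOCUG00000004879). The genes were chosen with results of these data known, so both their levels by cell type and their differences between injured and normal bladders are counted as used in the choice. Their own values are therefore given as a description, with no test, and tests are kept for the other genes of the same pathways. The lists of those genes were also drawn up with earlier results of these data known.

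The 4 libraries came from bladders of adult New Zealand rabbits, 2 libraries to a group, and the labels name no transgene, deletion or drug. The normal group (Normal_1 and Normal_2) was mucosa of undisturbed bladders, and the injured group (Injury_1 and Injury_2) was mucosa at day 10 after a focal piece of the mucosa had been cut away, when new urothelium had only just closed the wound. Dissociated cells were captured in droplets, and each RNA molecule was counted once through its unique molecular identifier (UMI). The comparison asks how the bladder lining differs while it regenerates from its undisturbed state. The study calls the libraries of a group biological replicates, but the labels do not say that each came from its own animal. The spread between the 2 libraries of a group may therefore be partly technical. An SD over all 4 libraries also includes the difference between the groups. Standard errors are those of the fit across all genes, and Poisson intervals cover counting error only.

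Thioredoxin reductase 1 (TXNRD1) uses NADPH to keep thioredoxin reduced, and thioredoxin in turn reduces protein disulfides and peroxiredoxins. SLC7A11, or xCT, is the light chain of the antiporter that imports cystine in exchange for glutamate and so feeds glutathione synthesis. PTGR1 is an NADPH-dependent reductase of prostaglandins, leukotriene B4 and reactive alkenals. All 3 are known targets of the transcription factor NRF2, encoded by NFE2L2, and SLC7A11 is also known as a target of the amino acid response factor ATF4. The urothelium is a layered epithelium with basal cells at its base, intermediate cells above them and umbrella cells facing the urine.

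After removal of cells of few UMIs, few genes or many mitochondrial UMIs, 4308 to 6081 cells were left per sample, with sample medians of 4813.5 to 7186 UMIs per cell. The 4 libraries held 28745017 to 47881609 UMIs in all, and any pair of libraries shared 4 to 12 cell barcodes. The 21945 cells fell into 25 clusters, which were named from marker genes into 10 classes, each written with "-like", except for 524 cells left unnamed. The redox genes described here were kept out of the clustering. Although the samples are labelled urothelium, cells with epithelial markers made up 2.84 to 10.2% of the cells of a sample and fibroblast-like cells 29.5 to 54.9%. The epithelial-like class was 1 cluster of 1532 cells (566, 354, 441 and 171 in Injury_1, Injury_2, Normal_1 and Normal_2), in which 8 of 9 epithelial markers were raised. Levels below are UMIs of a gene scaled to 1000000 UMIs of all genes (CPM), summed over the cells of a class in a sample, and samples are listed in that same order throughout.

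TXNRD1 was detected in all 7 classes that had at least 20 cells in every sample, and its highest values were those of the epithelial-like cells of the normal bladders. In epithelial-like cells its level was 365.5, 312.1, 1870 and 1427 CPM. In neutrophil-like cells it was 1081, 1078, 1060 and 715 CPM. The means over the 4 samples of these classes, 994 ± 778 (SD, n = 4) and 983 ± 179, lay within their spread, and the neutrophil-like class did not overlap the class below it. Macrophage-like cells followed at 569 ± 91.6 CPM, endothelial-like cells at 501 ± 90.9 and smooth muscle and pericyte-like cells at 383 ± 96.9, each overlapping its neighbour. T cell-like cells (187 ± 85.8 CPM) and fibroblast-like cells (141 ± 68.8 CPM) were lowest, and these overlapped too. Epithelial-like cells held 16.3, 12.9, 21.3 and 6.85% of the UMIs of the samples and 20.2, 14.4, 52.2 and 30.6% of their TXNRD1 UMIs. The excess was thus small in the injured samples and large in the normal ones.

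SLC7A11 was found in the same 4 classes that led for TXNRD1 and was close to absent elsewhere. Neutrophil-like cells averaged 114 ± 91.5 CPM, macrophage-like cells 77.3 ± 32.4, epithelial-like cells 64.4 ± 50.7 and endothelial-like cells 61.1 ± 67.7, and these neighbours all overlapped. T cell-like (6.17 ± 6.2 CPM), fibroblast-like (3.55 ± 1.90 CPM) and smooth muscle and pericyte-like cells (2.70 ± 1.58 CPM) were far lower, although the lowest endothelial-like sample (5.00 CPM) fell within the T cell-like range. The class that held most of the transcript changed from sample to sample. Epithelial-like cells gave 85.4% of the SLC7A11 UMIs of Normal_1 and 12.9% of those of Normal_2, whereas endothelial-like cells gave 7.13% and 74.0%.

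PTGR1, in contrast, was an epithelial gene in these samples. Epithelial-like cells averaged 3966 ± 1728 CPM, 26.1 times the next class with at least 20 cells in every sample. They held 86.6 to 92.4% of all PTGR1 UMIs in every sample. Mast cell-like cells, too few in the normal samples to be ranked, were at 371 and 196 CPM in Injury_1 and Injury_2 (24 UMIs in each). PTGR1 was among the 10 genes that led the epithelial-like cluster. The other 6 ranked classes lay between 62.8 ± 35.8 CPM (endothelial-like) and 152 ± 65.1 CPM (T cell-like), each overlapping its neighbour.

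**Figure D1:**
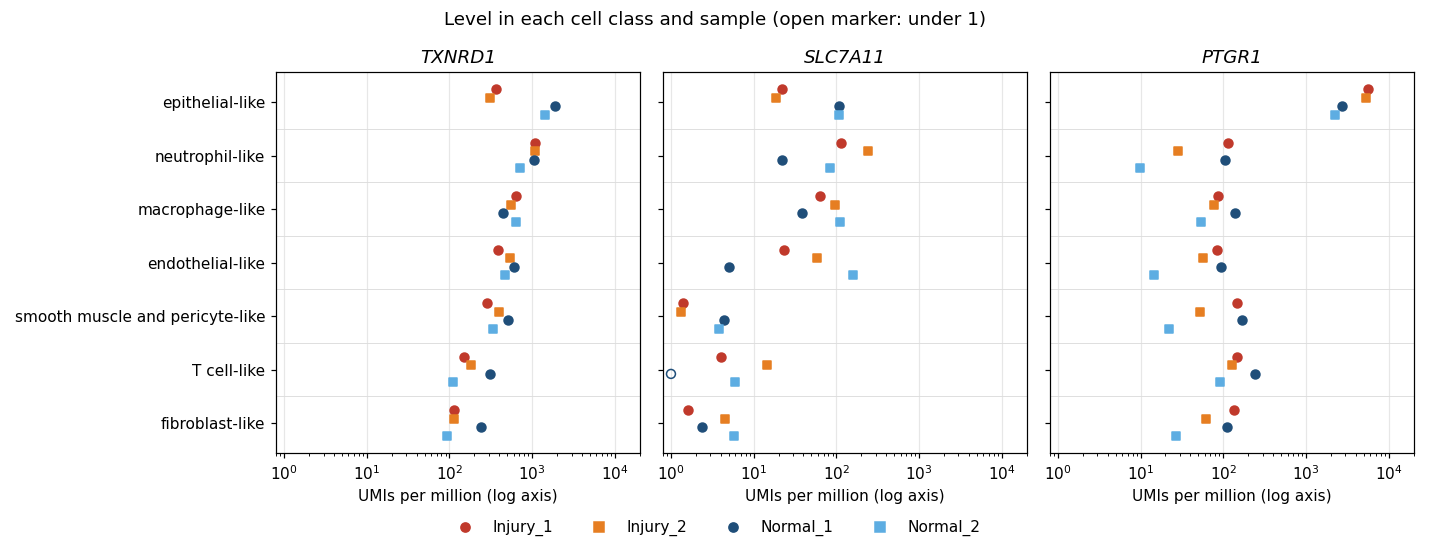
Level of TXNRD1, SLC7A11 and PTGR1 in 7 cell classes (rows), in CPM on a log axis, with 1 point per sample (red and orange for the injured, dark and light blue for the normal samples; an open marker is a value under 1). In the top row the blue points of TXNRD1 and SLC7A11 lie to the right of the red and orange ones, and those of PTGR1 to the left; PTGR1 outside the epithelial-like row reaches at most 243 CPM.

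Outside the epithelium, PTGR1 moved with the sample more than with the class. Summed over all other named classes it was 120, 64.4, 112 and 23.9 CPM, while over all cells of the sample it was 1009, 740, 666 and 177 CPM. Normal_2, with the fewest epithelial-like cells, was lowest in each of the 6 other classes described. RNA set free from broken epithelial cells can enter any droplet, and the part of such RNA in these low values was not tested. T cell-like cells stood above fibroblast-like cells within Normal_2, at 90.5 CPM (95% Poisson interval 66.2 to 121, counting error only) against 26.6 CPM (24.6 to 28.7). The median depth was 3927 UMIs in the former and 7042 in the latter, and its part was not tested.

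The share of cells with at least 1 UMI gave the same picture once each cell was thinned to 1000 UMIs, a step needed because depth differed between classes and samples (a median of 11931.5 to 19902 UMIs in epithelial-like and 5145 to 8563 in fibroblast-like cells). A TXNRD1 UMI was expected in 23.7, 23.3, 63.4 and 58.8% of the thinned epithelial-like cells (unthinned 77.2, 80.2, 91.2 and 91.2%) and in 8.08 to 17.7% of fibroblast-like cells. For SLC7A11 the shares in epithelial-like cells were 1.65, 1.67, 9.28 and 9.22% (unthinned 15.5, 18.9, 55.6 and 54.4%), against 0.154 to 0.414% in fibroblast-like cells, taken as the background. For PTGR1 they were 95.2, 94.0, 73.7 and 75.3% (unthinned 95.9 to 100%), against 2.66 to 12.5% in fibroblast-like cells. Thinning kept 549, 346, 416 and 162 epithelial-like cells, the rest having fewer than 1000 UMIs.

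In epithelial-like cells of the injured bladders, TXNRD1 and SLC7A11 were lower than in those of the normal bladders, and PTGR1 was higher. TXNRD1 averaged 339 ± 37.8 CPM (SD, n = 2) in injured and 1648 ± 314 CPM in normal bladders, a normal level 4.87 times the injured one, and the log2 fold change of the fit across all genes was -2.53 (standard error 0.26). SLC7A11 averaged 20.5 ± 2.49 and 108 ± 1.07 CPM from 161, 105, 575 and 327 UMIs, 5.30 times higher in normal bladders, with a log2 fold change of -2.66 (standard error 0.24). PTGR1 went the other way, with 5583, 5317, 2713 and 2249 CPM, an injured level 2.20 times the normal one and a log2 fold change of 0.89 (standard error 0.26). For none of the 3 genes did the injured and normal samples overlap. Among the 7046 genes of the fit, 15.5% had both injured samples below both normal ones and 39.4% had both above, and since this contrast was known when the genes were chosen nothing is read from their place in it.

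Other features of the epithelial-like cells also differed between samples. The summed level of 6 fibroblast markers in them, none of which was at 0, was 1570, 2373, 202 and 2649 CPM, and that of 5 neutrophil markers was 218, 786, 33.0 and 69.1 CPM, higher in both injured samples. Summed macrophage markers (8 genes) were at 96.0, 26.9, 9.10 and 60.8 CPM. A list of 10 stress genes that tissue dissociation is known to raise was at 21872, 25950, 15152 and 22807 CPM, and the median mitochondrial share was 8.14, 9.24, 10.2 and 10.7%, lower in both injured samples. The part of these features in the differences was not tested as a cause. With the mitochondrial limit set at 10% in place of 15%, the log2 fold change was -2.32 for TXNRD1, -2.16 for SLC7A11 and 0.73 for PTGR1. SLC7A11 was then at 22.9, 16.9, 107 and 51.5 CPM, so the close values of the 2 normal samples depended on that limit.

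Clustering the 1532 cells again gave 10 sub-clusters. Of these, 5 were free of markers of other classes, of very low depth and of proliferation genes among their leading genes. Sub-cluster 3 (191 cells, with KRT5 and ITGA2 among its leading genes) had 5 of 7 basal markers raised and is called basal-like. The basal marker TP63 went against that name, at 21.1, 45.4, 20.3 and 0 CPM there and at 23.9, 43.8, 75.2 and 66.5 CPM in sub-cluster 4, whereas KRT5 was at 198, 969, 464 and 152 CPM in sub-cluster 3 and at 30.1, 124, 16.5 and 24.2 CPM in sub-cluster 4. Sub-clusters 0 (281 cells, with UPK3B and CRISP3 among its leading genes) and 4 (191 cells, with UPK1B and TXNIP) had both of the umbrella markers that could be measured, UPK1B and UPK3B, raised, which are too few for a name. Sub-clusters 1 (272 cells) and 2 (265 cells, with F3, LAMB3, LAMA3 and PLAU) fell between, and sub-cluster 2 had 2 of 7 basal markers raised. The make-up of the class differed between samples. Sub-cluster 3 held 39, 29, 115 and 8 cells, sub-cluster 2 held 81, 58, 57 and 69, sub-cluster 4 held 94, 48, 36 and 13, and sub-cluster 6, which carried markers of myeloid cells, held 54, 32, 4 and 2. The part of this make-up in the differences over the whole class was not tested apart from the values within sub-clusters.

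In each of the 4 samples TXNRD1 was higher in the basal-like sub-cluster 3 than in the uroplakin-bearing sub-clusters 0 and 4, and PTGR1 was lower. TXNRD1 ran from 88.4, 78.2, 169 and 151 CPM in sub-cluster 4 to 714, 412, 3284 and 1652 CPM in sub-cluster 3, a ratio of 8.07, 5.27, 19.4 and 10.9 within the 4 samples. PTGR1 ran the opposite way, from 7967, 7050, 4665 and 4683 CPM in sub-cluster 4 to 1910, 1988, 559 and 683 CPM in sub-cluster 3, and the ratio of sub-cluster 4 to sub-cluster 3 was 4.17, 3.55, 8.35 and 6.86. The sub-clusters between did not rank alike in every sample. TXNRD1 was at 444, 365, 1075 and 909 CPM in sub-cluster 1, and in Normal_2 sub-cluster 2 (2077 CPM, 69 cells) stood above sub-cluster 3. SLC7A11 rested on fewer molecules, at 7.96, 12.5 and 54.1 CPM in sub-cluster 4 of Injury_1, Injury_2 and Normal_1 against 64.8, 64.3, 171 and 202 CPM in sub-cluster 3. Its lowest value in Injury_2 was that of sub-cluster 1 (18.3, 11.9, 70.8 and 58.8 CPM). The 13 cells of sub-cluster 4 in Normal_2 held 0 SLC7A11 UMIs, which allows a level of up to 18.1 CPM by the rule of 3 counts, and only 8 cells of Normal_2 were in sub-cluster 3, under the minimum of 10 set for a sub-cluster, so its values there are weak.

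**Figure D2:**
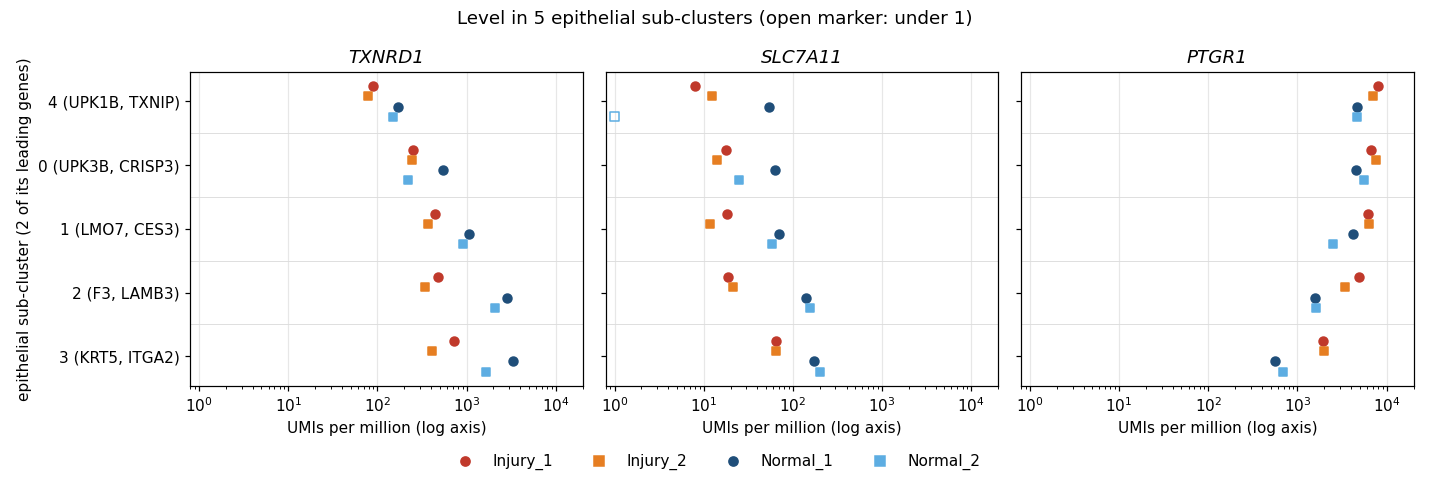
Level of the 3 genes in 5 epithelial sub-clusters (rows, ordered from the uroplakin-bearing at the top to the basal-like at the bottom), in CPM on a log axis, 1 point per sample; an open marker is a value under 1, and Normal_2 had 8 cells in sub-cluster 3. From the top row to the bottom row TXNRD1 lies farther right and PTGR1 farther left in each sample, with exceptions to a steady course such as TXNRD1 of Normal_2, which is at 2077 CPM in sub-cluster 2 and 1652 CPM in sub-cluster 3, while the blue (normal) and red or orange (injured) points stay apart in most rows.

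The difference between injured and normal bladders was also seen within most of these sub-clusters. TXNRD1 was lower in both injured samples than in both normal ones in 4 of 5 sub-clusters. The gap was widest in sub-cluster 2, with 479, 340, 2834 and 2077 CPM, a normal mean 5.99 times the injured one. The exception was sub-cluster 0, where Normal_2 (220 CPM, 18 cells) lay below the injured samples (247 and 245 CPM) and Normal_1 (547 CPM) above them. SLC7A11 was lower in the injured samples in 4 of 5 sub-clusters, again most of all in sub-cluster 2 (18.8, 21.3, 142 and 155 CPM), and the exception was sub-cluster 4 with its 0 UMIs in Normal_2. PTGR1 was higher in the injured samples in 5 of 5, by 1.40 times in sub-cluster 0 and by 3.14 times in the basal-like sub-cluster. Each of these counts includes the basal-like sub-cluster 3, where Normal_2 had only 8 cells, under the minimum of 10. The share of all genes without overlap was not computed within sub-clusters, so the counts are a description only. Some differentiation markers also differed between the groups inside the sub-clusters. UPK3B was higher in both injured samples in sub-clusters 0, 1, 2 and 4, by 4.32, 5.96, 10.4 and 5.02 times. KRT5 was lower in both in sub-cluster 2 (43.3, 123, 174 and 165 CPM) but higher in both in sub-cluster 4, where TXNRD1 was lower. TP63 was lower in both in sub-clusters 0, 1 and 4, with a normal mean 2.97, 1.51 and 2.09 times the injured one. It rested on few molecules, with 5, 6, 22 and 5 UMIs in sub-cluster 0. The groups overlapped for UPK1B in sub-clusters 0, 1, 2 and 4, for KRT5 in sub-clusters 0 and 1, and for TP63 in sub-cluster 2. The part of these markers was not tested. With the 5 sub-clusters alone in the fit, a choice made after seeing the data, the log2 fold changes of the class were -2.56 for TXNRD1, -2.68 for SLC7A11 and 0.84 for PTGR1.

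From cell to cell TXNRD1 and PTGR1 correlated negatively in 3 of 4 samples, and close to 0 in Injury_2. Over epithelial-like cells of at least 5000 UMIs, Spearman's correlation of the shares of UMIs of the 2 genes was -0.25 in Injury_1 (480 cells), -0.0645 in Injury_2 (328 cells), -0.62 in Normal_1 (376 cells) and -0.41 in Normal_2 (150 cells). TXNRD1 and SLC7A11 correlated at 0.20, -0.0350, 0.36 and 0.58. These cells share a library and differ in depth, and the values for SLC7A11 rest on few UMIs, so the correlations are given as a description. PTGR1 went with the umbrella marker UPK3B in every sample (0.44, 0.51, 0.50 and 0.36). TXNRD1 with the basal marker KRT5 gave 0.11, -0.0640, 0.55 and 0.30, so that the injured samples were near 0. The median cell of this kind carried 2.20, 2.40, 10.6 and 10.4 TXNRD1 UMIs per 10000, and the tenth of cells with the most TXNRD1 began at 7.32, 6.68, 40.6 and 31.0.

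The wider redox programme was read from lists of 146 genes, 77 of which were in the gene list under their symbol. Because the lists were drawn up with earlier results of these data known, their tests and shares are not free of that choice. PRDX1, SLC3A2, KEAP1 and ATF4 were not analysed here. In epithelial-like cells 62 listed genes other than the 3 described were tested, and 2 passed, both lower in injured bladders, while 117 of all 7046 genes passed (1.66%; 0.624% higher and 1.04% lower in injured). HMOX1, heme oxygenase 1, which breaks down heme and is a classical NRF2 target, was at 2.62, 1.42, 15.4 and 11.8 CPM from 19, 8, 81 and 36 UMIs (log2 fold change -2.97, standard error 0.42, adjusted p = 0.040, edgeR quasi-likelihood test). ALDH2, the mitochondrial aldehyde dehydrogenase, was at 21.2, 14.6, 66.8 and 69.4 CPM (log2 fold change -2.19, standard error 0.28, adjusted p = 0.035, edgeR). Both calls were lost without Injury_1 (adjusted p = 0.083 and 0.092, edgeR), without Injury_2 (adjusted p = 0.12 and 0.13, edgeR), with the 10% mitochondrial limit (adjusted p = 0.060 and 0.053, edgeR) and with the replicate number as a block (adjusted p = 0.066 and 0.065, edgeR). That of HMOX1 was also lost with the 5 sub-clusters alone (adjusted p = 0.056, edgeR).

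The median log2 fold change of the 62 genes was -0.27, against -0.0039 over all genes tested. Of the 62, 29.0% had both injured samples below both normal ones, against 15.5% of all genes tested, and 29.0% had both above, against 39.4%. These shares were counted on CPM without the scaling factors of the main fit, whereas the medians come from that fit. A change of scale matters here, since without the scaling factors of the main fit the median of all genes in epithelial-like cells stood at 0.23. On that scale the log2 fold changes were -2.28 for TXNRD1, -2.40 for SLC7A11 and 1.14 for PTGR1, so each kept its direction.

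Around TXNRD1, the other members of the thioredoxin system were less far apart between the groups. SRXN1, sulfiredoxin, which restores overoxidised peroxiredoxins, was at 410, 387, 771 and 904 CPM (log2 fold change -1.34, standard error 0.28, adjusted p = 0.080, edgeR), so its groups did not overlap but it did not pass. Across the sub-clusters SRXN1 of the normal bladders stood at 254 and 501 CPM in sub-cluster 4 and at 1233 and 986 CPM in sub-cluster 3, whereas in injured bladders it stayed between 337 and 564 CPM. Thioredoxin itself, TXN, was at 2833, 2210, 2260 and 4595 CPM (adjusted p = 0.40, edgeR), with Normal_2 far above the others. TXNIP, which binds and inhibits thioredoxin, was at 17.0, 27.1, 20.1 and 14.5 CPM (adjusted p = 0.88, edgeR) and had its highest values in sub-cluster 4 (39.8, 67.2, 136 and 54.4 CPM), where TXNRD1 was lowest. The remaining listed genes of the system, TXNL1, PRDX4, PRDX6 and TXNRD3, did not pass either.

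Around SLC7A11, no gene of glutathione synthesis passed. GCLC, the catalytic subunit of glutamate-cysteine ligase, was at 19.7, 18.7, 28.6 and 73.0 CPM (log2 fold change -1.70, standard error 0.53, adjusted p = 0.16, edgeR), so that Normal_2 carried most of the difference. Its modifier subunit GCLM was at 91.2, 54.5, 80.0 and 83.9 CPM (adjusted p = 0.44, edgeR), with the groups overlapping. GSR, glutathione reductase, was at 24.7, 19.9, 15.7 and 17.1 CPM (adjusted p = 0.76, edgeR). ASNS, asparagine synthetase and a target of ATF4, was at 30.5, 40.1, 21.2 and 22.0 CPM (adjusted p = 0.44, edgeR), higher in both injured samples.

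NFE2L2 was at 129, 124, 220 and 139 CPM (log2 fold change -0.73, standard error 0.24, adjusted p = 0.17, edgeR), the 2 groups not overlapping. NQO1, a quinone reductase and NRF2 target listed with PTGR1, was at 19, 41.3, 30.3 and 80.9 CPM (adjusted p = 0.36, edgeR), and here the samples with number 2 were the higher ones in each group. In the list that holds PTGR1, 10 other genes were tested, of which ALDH2 passed (1.66% of all genes) and 3 reached an unadjusted p under 0.05 (20.5% of all genes).

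**Figure D3:**
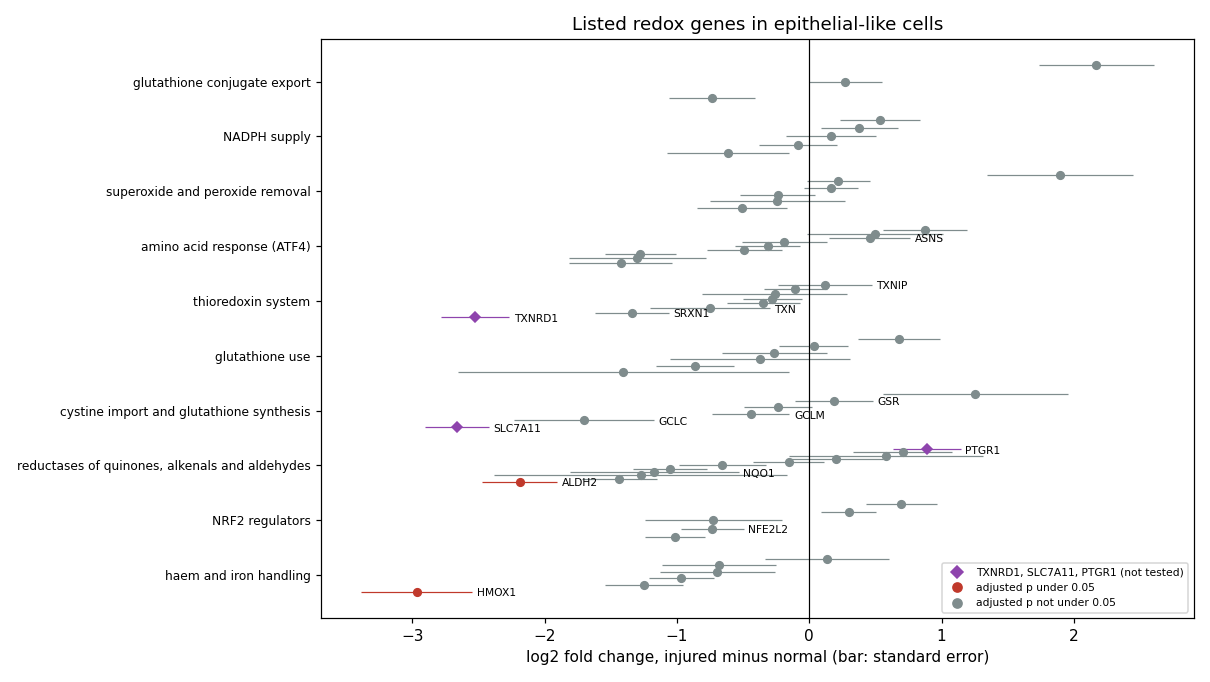
Log2 fold change (injured minus normal, points; bars are standard errors) of the listed genes tested in epithelial-like cells, grouped by list; purple diamonds are TXNRD1, SLC7A11 and PTGR1, which were not tested, red points passed an adjusted p of 0.05 and grey points did not. TXNRD1, SLC7A11, HMOX1 and ALDH2 lie farthest to the left, at -2.53, -2.66, -2.97 and -2.19, and PTGR1 lies at 0.89.

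In endothelial-like cells SLC7A11 lay farthest apart in the 2 normal samples. The class was at 23.6, 58.9, 5.00 and 157 CPM, so that Normal_1 was the lowest and Normal_2 the highest sample. This order held in each of the 3 large endothelial clusters. In cluster 0 (ESM1 and KDR among its leading genes) it was 24.8, 79.3, 7.89 and 208 CPM, in cluster 2 (SELP and SELE) 22.5, 52.3, 3.21 and 83.1 CPM, and in cluster 10 (BMX and NOS3) 28.5, 41.6, 3.20 and 102 CPM. In cluster 0 the counts behind these values were 62, 169, 29 and 1426 UMIs, and in cluster 10 of Normal_1 they were 5 UMIs. TXNRD1 did not share this order, with 391, 533, 606 and 475 CPM in the class. GCLM (69.7, 77.4, 55.9 and 119 CPM) and SRXN1 (184, 169, 118 and 258 CPM) were also lowest in Normal_1 and highest in Normal_2. GCLC, ASNS, TXNIP, NQO1 and ALDH2 were not, and the share of all genes with this order was not counted. The log2 fold change of SLC7A11 was -1.17 (standard error 1.34), and without Normal_2 it was 3.07. Summed fibroblast markers in endothelial-like cells had the same order of samples (592, 869, 242 and 891 CPM), and their part in the order was not tested.

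Myeloid cells split TXNRD1 and SLC7A11 between clusters. In macrophage-like cells, TXNRD1 was higher in cluster 12, with C1QA and MRC1 among its leading genes (774, 666, 689 and 1026 CPM), than in cluster 13, with HLA-DRA and CD74 (334, 433, 356 and 345 CPM), in 4 of 4 samples. SLC7A11 had the reverse order in 4 of 4, with 35.9, 34.1, 6.50 and 19.8 CPM in cluster 12 and 122, 166, 49.6 and 180 CPM in cluster 13. Cluster 12 of Normal_1 rested on 1 SLC7A11 UMI in 42 cells. Over the whole class, macrophage-like cells showed overlapping groups for both genes (log2 fold changes -0.05, standard error 0.29, for TXNRD1 and -0.05, standard error 0.50, for SLC7A11). These values turned with single libraries, to -0.35 and -0.65 without Normal_1 and to 0.33 and 1.01 without Normal_2. That of SLC7A11 was 0.61 at the coarser clustering resolution, where the macrophage-like class also held most of the cells called neutrophil-like below.

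In neutrophil-like cells both genes were higher in both injured samples, although the normal bladders held only 34 and 36 such cells. SLC7A11 was at 113, 239, 21.9 and 82.7 CPM from 196, 297, 4 and 17 UMIs (log2 fold change 1.78, standard error 0.65, or 1.02 without Injury_2 and 3.16 without Normal_2), and 18.2% of the 3137 genes tested had both injured samples above both normal ones. TXNRD1 was at 1081, 1078, 1060 and 715 CPM (log2 fold change 0.33, standard error 0.32), so that the injured samples lay inside the 95% Poisson interval of Normal_1 (916 to 1220 CPM). With the listed genes kept among the clustering features the groups overlapped for TXNRD1, at 1012, 977, 1170 and 715 CPM. Most of these cells lay in cluster 14, led by SERPINB2 and IL1B (207, 134, 29 and 21 cells), and there SLC7A11 was at 113, 246, 22.4 and 72.2 CPM. The rest lay in cluster 17, led by S100A8 and S100A12, with a median of 699 UMIs per cell. At the coarser resolution of 0.3 only the 213 cells of cluster 17 kept the name, with TXNRD1 at 311 and 443 CPM in Injury_1 and Injury_2. There a macrophage-like cluster held 506, 360, 71 and 80 cells, with C1QA, IL1B and ARG1 among its leading genes. In each sample these counts equal those of cluster 14 and macrophage-like cluster 12 (299, 226, 42 and 59 cells) together. Most cells called neutrophil-like here were thus counted with macrophages at that resolution. Summed macrophage markers in neutrophil-like cells were at 11056, 9075, 15389 and 11202 CPM. Summed fibroblast markers were also higher in both injured samples (1940, 1348, 98.3 and 482 CPM), as were the stress genes (11101, 10788, 7998 and 8171 CPM), and their part was not tested.

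**Figure D4:**
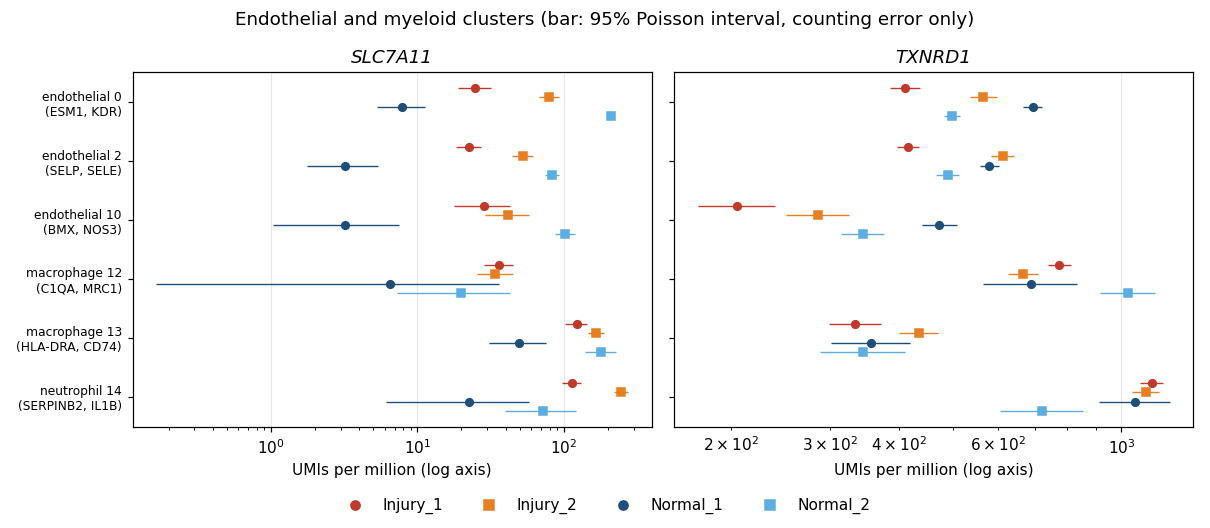
Level of SLC7A11 (left) and TXNRD1 (right) in 3 endothelial, 2 macrophage and 1 neutrophil cluster (rows, with 2 leading genes each), in CPM on a log axis, 1 point per sample with its 95% Poisson interval, which covers counting error only. In the endothelial rows SLC7A11 of Normal_1 (dark blue) lies farthest left and Normal_2 (light blue) farthest right; between the macrophage rows SLC7A11 and TXNRD1 move in opposite directions.

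In the remaining classes the groups overlapped for TXNRD1 and for PTGR1. TXNRD1 in fibroblast-like cells was at 114, 114, 243 and 92.9 CPM (log2 fold change -0.39, standard error 0.42), in T cell-like cells at 149, 183, 308 and 110 CPM (-0.47, standard error 0.45) and in smooth muscle and pericyte-like cells at 287, 394, 513 and 337 CPM (-0.29, standard error 0.29). Without Normal_1 the value was 0.34 in fibroblast-like and 0.42 in T cell-like cells, and without Normal_2 it was -0.88 and -1.0. Normal_1 was thus the highest sample in each of them, and it was also the sample with the most TXNRD1 over all cells (295, 279, 762 and 320 CPM). SLC7A11 was too sparse for the fit in T cell-like cells (12, 25, 0 and 3 UMIs) and in smooth muscle and pericyte-like cells (4, 4, 7 and 9 UMIs). In fibroblast-like cells it was at 1.61, 4.49, 2.36 and 5.73 CPM (log2 fold change -0.35, standard error 0.65).

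Outside the epithelium 0 listed genes other than the 3 described passed in any of 6 classes by edgeR, and few genes of any kind did. In all, 0% of the genes tested passed in endothelial-like, fibroblast-like, neutrophil-like and smooth muscle and pericyte-like cells, 0.0746% in macrophage-like cells (0.0373% higher and 0.0373% lower in injured) and 0.088% in T cell-like cells (0.022% higher and 0.066% lower). An unadjusted p under 0.05 was reached by 5 of 63 listed genes in endothelial-like cells (7.02% of all genes tested), 10 of 71 in fibroblast-like (10.5%), 9 of 49 in macrophage-like (13.6%), 4 of 35 in neutrophil-like (7.75%), 6 of 56 in smooth muscle and pericyte-like (9.41%) and 7 of 40 in T cell-like cells (14.6%). In epithelial-like cells it was reached by 18 of 62 (20.5%). The Wald test of DESeq2 passed 1 listed gene in endothelial-like, 2 in fibroblast-like and 1 in macrophage-like cells, where it passed 57, 250 and 71 of all genes. It passed 0 listed genes in neutrophil-like, smooth muscle and pericyte-like and T cell-like cells, and 12, 51 and 86 of all genes. On simulated counts the edgeR fit found only 3.12 to 16.8% of 2-fold changes in these 6 classes. A gene that did not pass may therefore still differ.

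Listed genes were also counted by whether the groups overlapped. Both injured samples were above both normal ones for 15 of the 35 listed genes in neutrophil-like cells, where the 18.2% of all genes given above did so, and below for 1 (18.8% of all genes). In macrophage-like cells 20 of 49 were above (33.5% of all genes) and 3 below (13.8%), and in T cell-like cells 17 of 40 were above (35.3%) and 2 below (14.3%). Endothelial-like cells had 16 of 63 above (24.4%) and 13 below (12.6%). Fibroblast-like cells had 11 of 71 above (15.1%) and 18 below (28.4%), and smooth muscle and pericyte-like cells 11 of 56 above (20.3%) and 14 below (20.4%). These are counts without a test, made on CPM without the scaling factors of the fits.

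The genes with a profile most like each of the 3 were sought over 35 sums of a class in a sample (10 classes, 4688 genes with a symbol and a mean of at least 20 CPM in their highest class), by Pearson's correlation of log2(CPM + 10). For TXNRD1 they were IL1A (r = 0.77), SLC7A11 (0.75), MALT1 (0.74), NFAT5 (0.74) and C17orf49 (0.73). For SLC7A11 they were TXNRD1 (0.75), MALT1 (0.74), SMOX (0.73), IL1RN (0.72) and SNX10 (0.71), of which all but TXNRD1 were highest in neutrophil-like cells. For PTGR1 they were KRT15 (0.95), SF3B2 (0.95), TST (0.93), LAD1 (0.91) and KRT18 (0.91), all highest in epithelial-like cells, and its correlation was 0.22 with TXNRD1 and 0.051 with SLC7A11. The sums share libraries and depth, so these values describe likeness over classes only.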

How the data were processed

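Droplet 3′ single-cell RNA-seq of rabbit bladder mucosa was analysed in 4 libraries, 2 normal and 2 injured at day 10. The deposited files hold whole UMI counts per gene and cell, made by the authors with Cell Ranger 6.0.1 per the file headers; the submitters' notes also name Seurat, and the genome build is not given in the sources used here. All samples could be used, and 0 columns of per-sample values were set aside. Libraries held 28745017 to 47881609 UMIs, which bounds how well sparse genes such as SLC7A11 are counted, and intervals cover counting error only.

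Cells with at least 500 UMIs, 200 genes and at most 15% of UMIs from 13 mitochondrial genes were kept. They were normalised, integrated over samples and clustered in Seurat 5.3.0 (2000 variable features, 30 components, resolution 0.8), without the listed redox genes. Clusters were named from fixed markers, and 524 cells stayed unnamed. They were a cluster of 342 cells with few UMIs and no own marker leading, and a cluster of 182 cells with mostly high doublet scores (91.2%). Doublets were scored with Scrublet in scanpy 1.11.5, and apart from that unnamed cluster they were removed only in an alternative. UMIs were summed per class and sample with at least 20 cells. Injured and normal sums were compared with the edgeR 4.0.16 quasi-likelihood test (TMM factors, Benjamini-Hochberg adjustment over all genes tested, threshold 0.05), and with the DESeq2 1.42.0 Wald test as an alternative. The edgeR fits were tested on simulated data, in which genes of at least 20 CPM were changed. They found 58 to 96.2% of 4-fold changes and 3.12 to 16.8% of 2-fold changes, with 82.4 and 6.12% in epithelial-like cells. R 4.3.3, limma 3.58.1, Python 3.11.15, numpy 2.4.6, scipy 1.17.1 and matplotlib 3.10.9 were used.

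The 3 genes, the gene lists and the markers were chosen with earlier results of these data known. Genes named were the 3, their fixed pathway partners, every listed gene that passed, and the 5 most alike in profile; leading genes of clusters, UPK3B and the remaining thioredoxin genes are named in addition. Replicate numbers are shared between the groups, but nothing says that they pair the samples. Deviations of same-numbered samples correlated at -0.084 to 0.19 over the 7 classes, so the main fit has no block. Alternatives were another normalisation, test, filter, mitochondrial limit, resolution, doublet removal, thinning depth and each library left out. Others, 3 in number, were added after seeing the data: UMI totals without scaling factors, the 5 epithelial sub-clusters alone, and fibroblast-like cells without the proliferating cluster.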

Additional observations from a re-analysis of the deposited data

Results flagged for a closer look

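The injured-against-normal difference of TXNRD1 had opposite signs in neutrophil-like and epithelial-like cells, with both injured samples above both normal ones in the first and below in the second. In neutrophil-like cells the nearest samples were 1078 and 1060 CPM, within counting error, and the groups overlapped when the listed genes were kept in the clustering. The log2 fold change in neutrophil-like cells minus that in epithelial-like cells was 2.85. For SLC7A11 the same difference was 4.44, with 4 and 17 UMIs behind the normal neutrophil-like values. Neither difference was tested.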

How the results depend on the processing

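In epithelial-like cells the directions of TXNRD1 (-2.61 to -2.28), SLC7A11 (-2.77 to -2.16) and PTGR1 (0.73 to 1.14) held under the 14 alternatives run. SLC7A11 was at -2.40 with UMI totals without scaling factors and at -2.16 with the 10% mitochondrial limit. The count of listed genes other than these 3 that passed there, 2 in the main test, was 11 by DESeq2, 14 with no filter on low counts (967 of all genes), 0 with the 10% limit (50 of all genes) and 0 to 7 with 1 library left out (50 to 476 of all genes). With UMI totals, the genes passing among all genes went from 117 to 177 and the share of them higher in injured from 37.6 to 57.1%. DESeq2 passed 513 of 7046 genes, beside its 11 of 62 listed genes. In classes where 0 listed genes passed, DESeq2 passed 1 in endothelial-like, 2 in fibroblast-like and 1 in macrophage-like cells. With no filter the counts were 4 in T cell-like, 3 in fibroblast-like, 6 in macrophage-like and 1 in neutrophil-like cells, of 352, 380, 409 and 57 genes passing in all. With 1 library left out they were 0 to 5 in T cell-like, 0 to 1 in fibroblast-like and in neutrophil-like, 0 to 2 in macrophage-like and 0 to 8 in smooth muscle and pericyte-like cells, with at most 398, 92, 39, 221 and 931 genes passing in all in that order of classes. A group left with 1 library is assumed to vary like the other. Of the 5 genes most like SLC7A11, 3 were shared with a pseudocount of 1. Where the filter, cells or libraries changed, the numbers of genes tested are not given, so those counts are not read against the rate over all genes. The cause of these changes was not tested.

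With the replicate number as a block, the listed genes that passed numbered 0 for the epithelial-like, 5 for the fibroblast-like and 1 for the macrophage-like class, of 58, 470 and 71 genes passing in all, and no other class changed its count. The numbers are not shown to pair the samples. At resolution 0.3 the normal samples had too few neutrophil-like cells for a comparison, and TXNRD1 in this class was at 311 and 443 CPM in the injured ones, against 1081 and 1078 CPM. With 2 libraries a group, and 34 and 36 neutrophil-like cells in the normal samples, small differences and sparse genes could not be resolved.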
